A study of Mus musculus with 74 samples.

Results

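Among the 40 kb windows of chromosomes 1 to 19, 1042 of 61816 (1.69%) were positive in 10 to 15 of the 74 libraries. These windows cover 41.7 Mb and are called members here. The whole table holds 68162 windows. The libraries come from genome architecture mapping (GAM), in which nuclei are frozen and sliced, the part of 1 nucleus in a slice (a nuclear profile) is cut out by laser, and its DNA is amplified and sequenced. All 74 libraries belong to 1 group: single nuclear profiles of 46C, a mouse embryonic stem cell line of the 129/Ola strain with a reporter for neural differentiation at Sox1, grown with LIF and moved to serum-free medium 24 h before harvest. The study's own count of additional single-profile libraries is lower than the 74 listed here, for a reason the labels do not give. By name, 34 of the libraries carry the prefix f13 and the other 40 carry f14, with no meaning given in the labels. The genome coverage of a library, the share of all windows scored positive, ran from 0.0205% to 12.4% with a median of 5.16%, and 5 libraries lay under 1%. The table holds calls of present or absent without reads, so the depth behind each call is unknown.

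A slice takes a thin section of a nucleus, so each profile holds a small part of the genome in stretches of chromosome that happened to be cut. The number of libraries in which a window is positive is its detection frequency, the quantity by which co-segregation of pairs of windows is normalized. Detection depends on how often a slice cuts the locus, and also on amplification, sequencing and how much of the window short reads can be placed in. A window called in more libraries than its neighbours can therefore be of interest either as a locus or as a property of the sequence, and the calls alone do not separate the 2 kinds.

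Most members held little sequence that recurs within the same window. A stretch of 120 bases from the centre of 5 member windows shows the range, with capitals for bases inside a word of 24 bases that occurs at least 2 times in the same 40 kb window. The first 2 lie in the most detected windows of the 2 longest runs of members. The third lies in a window that stood out from its neighbours, and the last 2 lie in the 2 members with the largest share of repeated words. All are forward strands of the mm9 assembly (NCBIM37).
chr9:19940001-19940120, 15 libraries, intron of the olfactory receptor gene Olfr869: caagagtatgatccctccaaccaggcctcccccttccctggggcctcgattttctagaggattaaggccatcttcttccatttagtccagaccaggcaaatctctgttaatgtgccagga
chr17:10500001-10500120, 12 libraries, intron of Qk: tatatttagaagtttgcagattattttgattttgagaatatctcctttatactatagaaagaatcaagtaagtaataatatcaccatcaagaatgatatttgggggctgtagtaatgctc
chr14:7780001-7780120, 15 libraries, intron of Gm10406 and Gm3667: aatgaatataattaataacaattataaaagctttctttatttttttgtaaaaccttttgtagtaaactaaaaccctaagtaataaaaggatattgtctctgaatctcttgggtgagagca
chr9:3060001-3060120, 10 libraries, intergenic: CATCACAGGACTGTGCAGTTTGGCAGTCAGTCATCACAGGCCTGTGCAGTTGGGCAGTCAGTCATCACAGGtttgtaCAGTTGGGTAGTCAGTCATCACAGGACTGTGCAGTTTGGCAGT
chr5:26420001-26420120, 11 libraries, intergenic: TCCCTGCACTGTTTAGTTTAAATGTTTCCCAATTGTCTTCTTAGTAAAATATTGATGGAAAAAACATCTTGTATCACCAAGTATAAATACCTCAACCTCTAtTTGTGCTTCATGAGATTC
The first 3 stretches hold no repeated word. In the chr9:3060001-3060120 stretch, 114 of 120 bases lie in repeated words, from a tandem array in which the commonest word occurs 109 times in the window. In the chr5:26420001-26420120 stretch, 119 of 120 bases do so. Repeated words made up 69% and 48.6% of the windows around these last stretches, and 0.818%, 0.415% and 7.5% of the windows around the first 3. Over all members the median was 1.31%, and 1.38% over all autosomal windows. Only 12 of the 1042 members exceeded 10%, as did 1223 of all 61816 windows.

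The members were chosen by their number of positive libraries, so that number is a description and was not tested. Most sat at the lower limit. Of the members, 617 were positive in 10 libraries, 278 in 11, 92 in 12, 31 in 13, 13 in 14 and 11 in 15. Just outside the limits, 1250 windows were positive in 9 libraries and 4 in 16. The mean was 10.6 libraries over the members and 4.19 over all autosomal windows. To set these numbers against placement, each library's calls were imagined moved by a random distance along each chromosome, which keeps its coverage of that chromosome and the lengths of its stretches, and the average over all such shifts was computed exactly. Shifted calls gave 518 members, so the observed number was 2.01 times as high. The excess grew over the range, from 1.77 times at 10 libraries to 2.5 at 12 and 4.99 at 14. It was 18.2 times at 15 libraries, where the shifts gave 0.603 windows. Without the 3 libraries of highest coverage and with the same limits, 628 windows were members and the excess was 2.19 times.

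**Figure D1:**
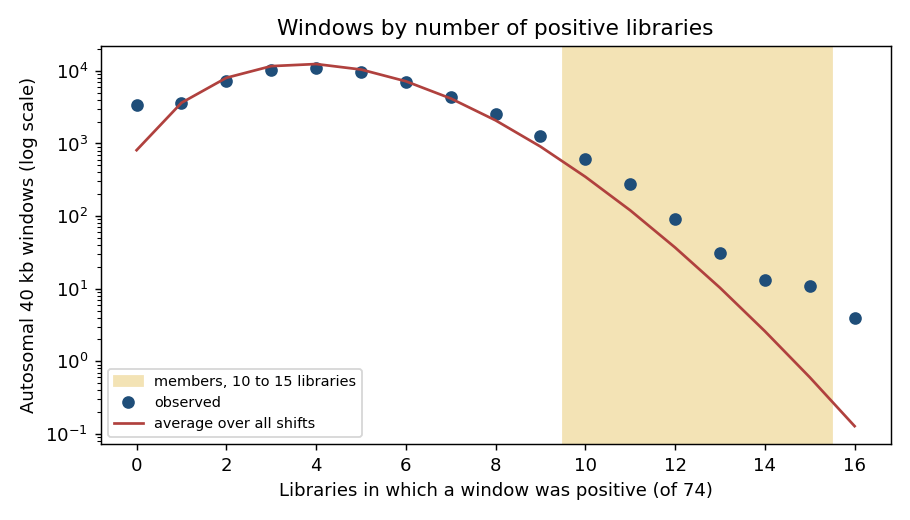
Number of autosomal 40 kb windows (log scale) against the number of libraries in which they were positive, as observed (points) and averaged over all shifts of the calls along each chromosome (line). Observed numbers exceed shifted ones from 7 libraries on (4436 and 4171 windows), and at 10 libraries they are 617 and 348. They also do so at 0 libraries (3359 and 809 windows) and slightly at 1 (3645 and 3634). Of the 3359 windows in 0 libraries, 1411 are free of unknown bases.

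Shifts move calls onto stretches of unknown bases, where no read can be placed. Among the 59585 windows with no unknown base, 1035 were members, and shifts within these windows gave an excess of 1.71 times. All 19 chromosomes had more members than shifts gave, but their number varied widely. Chromosome 1 had the most members per window, 183 of 4930 (3.71%), followed by chromosome 9 (3.06%), chromosome 13 (2.93%) and chromosome 10 (2.77%). Chromosome 8 had the fewest, 9 of 3294 (0.273%). These 2 chromosomes also had the highest and the lowest mean detection of the 19, at 6.77% and 4.42% of windows per library. The ratio to shifts had another order. It was 1.59 on chromosome 1 (115 in shifts), 1.51 on chromosome 5 and 1.53 on chromosome 6, and it was 6.17 on chromosome 14 (33 members, 5.35 in shifts), 4.77 on chromosome 7 (26 and 5.45) and 4.64 on chromosome 17 (54 and 11.6). Within windows free of unknown bases, these last 3 ratios were 5.09, 2.79 and 3.73.

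**Figure D2:**
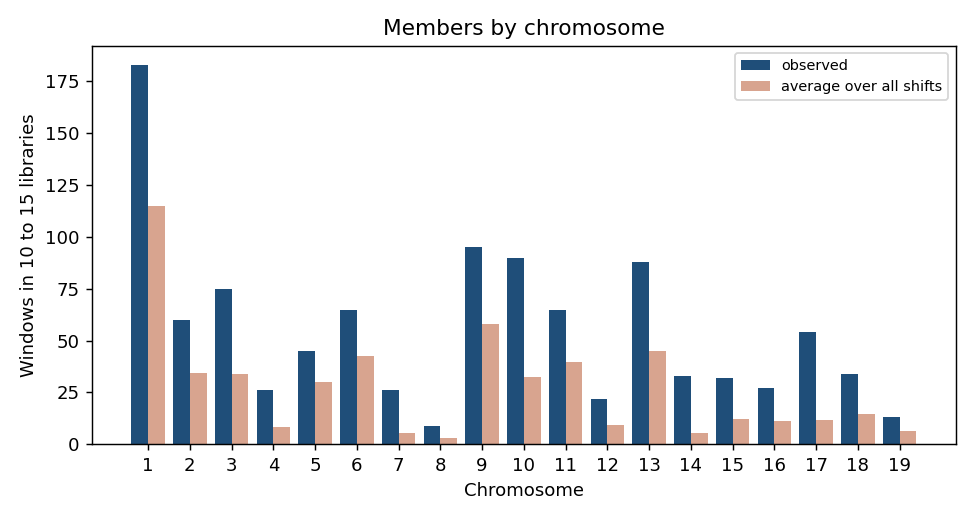
Members on each autosome as observed (dark bars) and averaged over all shifts (light bars). Chromosome 1 has the most on both counts, 183 and 115, while chromosomes 14 and 17 have 33 and 54 members against 5.35 and 11.6.

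Along the chromosomes, members were dense near the centromeric end. Mouse autosomes have the centromere at the start of their numbering, and the first 3 Mb of each is unknown sequence that held 0 members in 1425 windows. The next 10 Mb, from 3 to 13 Mb, held 197 members. Rates leave out windows with unknown bases, members among them, and the rate there was 4.17 per 100 windows. The last 10 Mb held 83 members with a rate of 1.75 per 100, and the sequence between held 762 with a rate of 1.51. Each chromosome was also divided into 10 segments of equal length. Among windows free of unknown bases, members were 3.75 and 3.79 per 100 in segments 1 and 2. They were 1.75 per 100 in segment 3, 0.651 in segment 8 and 1.79 in segment 10. Over all windows, segments 1 and 2 had 2.88 and 3.74 members per 100. Segments 1 and 2, called the proximal segments here, thus held 409 members (39.3%) on 18% of the windows free of unknown bases. Windows in 7 to 9 libraries leaned the same way less far, with 12.1% and 14.3% of them in segments 1 and 2, where the members had 17.1% and 22.2%. No test was made of the difference between these shares. The mean number of libraries over all windows free of unknown bases was 4.99 in segment 1 and 3.91 in segment 9. Its part in the density of members was not tested.

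**Figure D3:**
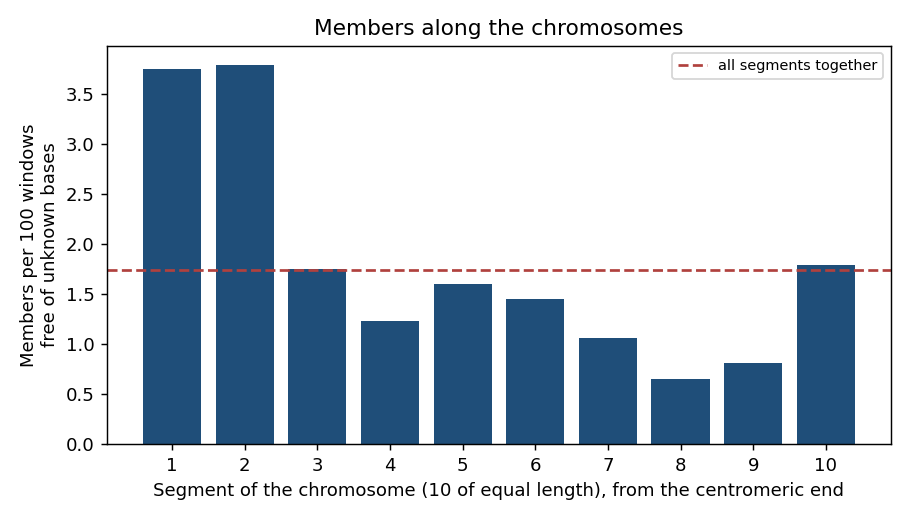
Members per 100 windows free of unknown bases in each of 10 segments of the autosomes, counted from the centromeric end, with the value over all segments as a dashed line. Segments 1 and 2 reach 3.75 and 3.79, segment 8 has 0.651, and segment 10 has 1.79.

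On 18 of 19 chromosomes the proximal segments held a larger share of the members than of the windows free of unknown bases. The share was 76.9% on chromosome 19 (10 of 13 members), 66.7% on chromosome 17 (36 of 54) and 61.7% on chromosome 2 (37 of 60). It was only 19.3% on chromosome 13 and 20% on chromosome 5, where the proximal segments had 18% and 18.1% of the windows free of unknown bases. These segments hold 20% of all windows, so against all windows chromosome 13 is below its share and chromosome 5 is at it. Chromosome 18 was below its share on both counts with 2 of 34 members (5.88%) in its proximal segments, and 12 of the 34 in segment 10. Chromosome 1, with the most members, had 28.4% in the proximal segments, and chromosome 9 had 37.9% there and 21 of 95 in segment 10. Neighbouring windows share libraries, so these counts hold fewer independent observations than windows.

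The members formed 818 runs of adjacent windows, of which 674 were single windows. There were 97 runs of 2 windows, 27 of 3, 14 of 4, 3 of 5, and 1 each of 6, 7 and 9. Runs of at least 2 windows held 368 members (35.3%). The mean run length was 1.27 windows, and shifts gave 1.17. Adjacent pairs of members numbered 224 where shifts gave 74.4, a ratio of 3.01. Shifts also gave fewer members, 518 against 1042, so this ratio includes the excess of members. Shifts produce runs because a slice takes stretches longer than a window. A call in a member had a positive neighbour in the same library in 73.3% of cases, and so did 73% of all autosomal calls. After removal of calls with no positive neighbour, 158 windows met the limits, in 104 runs. Adjacent members shared a median of 7 positive libraries among a median of 14 positive in either. Shared libraries were 52.8% of those positive in either, and 35.6% over all 61797 adjacent pairs of autosomal windows. This difference was not tested, and the choice of windows with many positive libraries favours it. No value from shifts is given for it. The runs fell into 477 of the 2482 bins of 1 Mb on the autosomes. One of the densest bins was chr1:38000001-39000000 with 13 members among its 25 windows, which holds Txndc9, Eif5b, Rev1 and Aff3 among others.

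Raised detection extended around the members. Windows next to a member were positive in 7.67 libraries on average, those 0.2 Mb away in 6.62, those 1 Mb away in 5.55 and those 5 Mb away in 4.69. Shifted calls with members chosen the same way gave 7.27, 6.46, 5.61 and 4.84. Observed flanks were thus slightly higher than shifted ones up to 0.2 Mb (by a factor of 1.06 next to a member) and at most equal or slightly lower from 0.32 Mb on, down to 0.946 times at 4 Mb. The 674 single-window members had neighbours with a median mean of 7 libraries. In 194 of them a neighbour was positive in 9 libraries or in more than 15, and in 22 the neighbours averaged under 4.

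**Figure D4:**
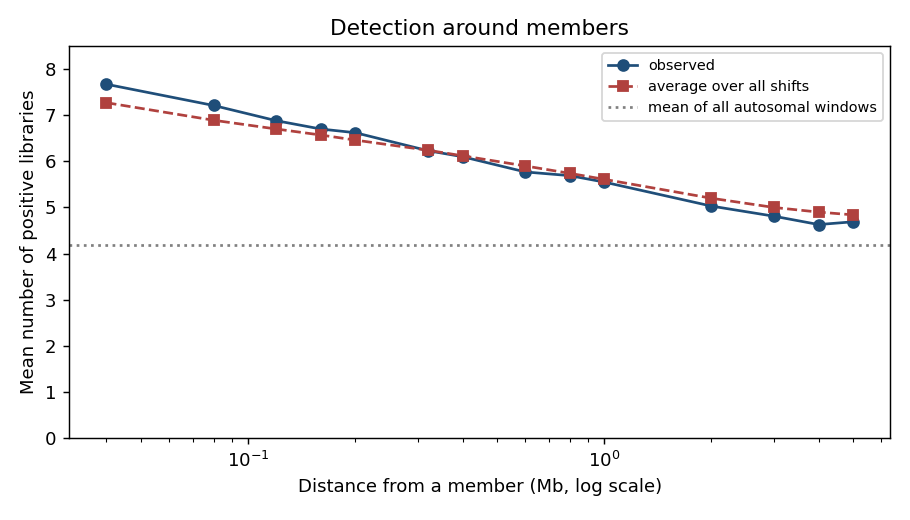
Mean number of positive libraries against the distance from a member (log scale), observed (circles) and averaged over all shifts (squares), with the mean of all autosomal windows, 4.19, as a dotted line. Both curves fall together, from 7.67 and 7.27 next to a member to 4.69 and 4.84 at 5 Mb.

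The longest run, chr9:19760001-20120000, spans 9 windows (360 kb) of an olfactory receptor cluster, and its windows were positive in 10, 11, 12, 14, 15, 10, 13, 10 and 11 libraries. It overlaps Olfr866 to Olfr873, Olfr39 and Olfr18, genes for odorant receptors used in sensory neurons of the nose. In all, 21 libraries were positive in at least 1 of the 9 windows, 7 named f13 and 14 named f14, and 2 were positive in all 9. The next, chr17:10240001-10520000 (7 windows), partly overlaps Qk (chr17:10399336-10512245), which encodes the RNA-binding protein Quaking, with 10, 10, 11, 11, 10, 11 and 12 libraries. The first 3 windows of this run, with 10, 10 and 11 libraries, lie outside the gene. The run was positive in 18 libraries, 9 of each prefix.

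A further 4 runs had 5 or 6 windows. On chromosome 10, chr10:77680001-77920000 (6 windows, 10 to 12 libraries) overlaps Trappc10 of a vesicle tethering complex, Agpat3 of phospholipid synthesis, Gm10146, the ribosomal RNA processing gene Rrp1, Cstb, which encodes the protease inhibitor cystatin B, and Pdxk, which encodes pyridoxal kinase. No library was positive in all 6 of its windows, although 21 were positive in at least 1. Also on chromosome 10, chr10:120320001-120520000 (5 windows, 10, 11, 10, 10 and 10 libraries) overlaps Msrb3, the inner nuclear membrane protein gene Lemd3 and the Wnt inhibitor gene Wif1. In this run 5 of the 16 libraries covered every window. On chromosome 11, chr11:50400001-50600000 (5 windows, 10, 11, 13, 12 and 10 libraries) overlaps Adamts2, which encodes a procollagen protease. On chromosome 17, chr17:15880001-16080000 (5 windows, 10, 11, 12, 11 and 10 libraries) overlaps Chd1, a chromatin remodeller with a known role in embryonic stem cells, and Rgmb, a co-receptor for bone morphogenetic proteins. Of the 14 runs of 4 windows, the one with the highest mean number of libraries (12.5) was chr1:38040001-38200000 (15, 14, 10 and 11 libraries) over Txndc9, the translation initiation gene Eif5b and Rev1, a polymerase of DNA damage bypass. The 7 runs described were each positive in 16 to 21 libraries in at least 1 window.

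The longest runs without a protein-coding gene had 4 windows each, and there were 4 of them. They are chr16:9360001-9520000 (10, 12, 11 and 10 libraries, 42.3% GC), chr3:6680001-6840000 (11, 11, 10 and 10 libraries, 37.4% GC), chr3:4200001-4360000 (10, 11, 10 and 10 libraries, 36.2% GC) and chr9:118080001-118240000 (10, 10, 11 and 10 libraries, 44.6% GC). The first 3 lie within the first 10 Mb of their chromosome, and the run on chromosome 9 lies in its distal part.

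At the upper limit, 11 windows were positive in 15 libraries. The one that stood furthest above its neighbours was chr2:181640001-181680000 near the end of chromosome 2, whose neighbours were positive in 3 and 4 libraries. The annotation has no gene there, and the window was positive in 6 odd-column and 9 even-column libraries. Next was chr14:7760001-7800000 over the predicted genes Gm10406, Gm3667 and Gm6356, with neighbours at 5 and 11. Then came 2 windows with equal gaps to the mean of their neighbours, 8.5 libraries. These were chr1:137200001-137240000 over Timm17a, of the mitochondrial import machinery, and the actin-binding gene Lmod1, and chr7:29560001-29600000 over the deacetylase gene Sirt2, Rinl and the RNA-binding protein gene Hnrnpl. Each had 1 neighbour among the members, at 13 and 10 libraries. Repeated words made up 4.52%, 7.5%, 2.71% and 1.67% of these 4 windows, each above the median over the members.

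Members carried more genes than the autosomes at large. A protein-coding gene overlapped 65.3% of the members and 53.9% of all autosomal windows (55.6% of those free of unknown bases). The share rose with detection up to the members. It was 52.1% of windows in 1 to 3 libraries, 56.2% in 4 to 6 and 62% in 7 to 9. In the 17 windows of 16 or more libraries it was lower than in members, at 58.8%. Members overlapped 0.909 ± 0.889 genes per window (SD over the 1042 windows), and all windows 0.739 ± 0.878. They held 0.455 ± 0.776 start sites per window, where all windows held 0.346 ± 0.719. Exons of protein-coding genes made up 4.05% of member sequence and 2.99% of all. These differences were not tested because adjacent windows are not independent. Among windows free of unknown bases, the gap was wider away from the centromere. In the proximal segments 57.8% of members and 52.5% of windows overlapped a gene, and in the rest 70.2% and 56.2%.

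Base composition followed. The median GC content was 42.2% over the members (quartiles 39.3% and 45%) and 41.4% over all windows (38.7% and 44.6%), with 41.1%, 41.4% and 41.9% in windows of 1 to 3, 4 to 6 and 7 to 9 libraries. The members had a median of 8.4 CpG per kb and all windows 7.72. In quintiles of the windows by GC content, members were 1.39, 1.53, 1.73, 2.13 and 1.9 per 100 windows from the lowest to the highest GC, so quintile 4 (42.6% to 45.4% GC) was the richest. Among windows free of unknown bases, the medians of members and of all windows were 40.8% and 40.6% GC in the proximal segments, and in the rest they were 43.1% and 41.6%.

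Of 21417 protein-coding genes on the autosomes, 474 (2.21%) had their start site in a member, and the listed gene families ranged from 0 to 2.9%. Among Olfr genes 14 of 1106 (1.27%) did. Of these, 9 lay in the longest run, and the others were Olfr344, Olfr887, Olfr888, Olfr1378 and Olfr1377. For the pheromone receptor families Vmn1r and Vmn2r it was 7 of 327 (2.14%), namely Vmn2r67, Vmn2r74, Vmn2r83, Vmn1r204, Vmn1r211, Vmn2r111 and Vmn2r112. The zinc finger genes named Zfp gave 8 of 365 (2.19%), namely Zfp281, Zfp607, Zfp868, Zfp558, Zfp560, Zfp445, Zfp167 and Zfp608. Ribosomal protein genes gave 4 of 138 (2.9%), namely Rpl22l1, Rps9, Rpl17 and Rpl13a-ps1. Solute carriers gave 7 of 358 (1.96%), namely Slc30a10, Slc37a3, Slc22a14, Slc22a13, Slc35d3, Slc2a12 and Slc5a4a. Keratins gave 2 of 100 (Krt222 and Krt24, in 1 run), cytochrome P450 genes of families Cyp2 to Cyp4 gave 1 of 86 (Cyp3a57), and microRNA genes 8 of 464 (1.72%), namely Mir872, Mir26a-1, Mir340, Mir804, Mir467f, Mir1934, Mir194-2 and Mir192. None of the 40 Hox, 34 protocadherin, 67 histone or 41 beta-defensin genes started in a member. With 2.21% as the share of all genes, a count of 0 in lists of this size is no result about them.

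A list of genes with known roles in the embryonic stem cell state was also placed. Of its 36 symbols, 34 were matched on the autosomes and 0 started in a member. The median over their windows was 4 libraries, the same as over all autosomal windows. The windows of Nr5a2, Dnmt3l and Mycn came closest with 9 libraries each, just outside the limit, and that of Sall4 had 8. Nanog had 6 positive libraries, Pou5f1 5, Klf4 4 and Sox2 2. Beside the share of 2.21% among all genes, 0 of 34 is no result about this list.

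Each library contributed to the members. The share of members positive in a library ran from 0.192% to 27.9% with a median of 14.2%, and all 74 libraries were positive in a larger share of members than of autosomal windows, which the choice of members favours. The 10 libraries with the most calls gave 23.5% of the 11082 calls in members and 24.6% of all autosomal calls. Libraries named f13 gave 47.8% of member calls and 47.4% of all autosomal calls. Odd-ordered library columns gave 55% of member calls and 53.3% of all. A member had a median of 6 positive libraries among the 37 odd columns (range 1 to 13) and of 5 among the 37 even columns (range 0 to 10), and over all windows both medians were 2. Under 2 positive libraries in 1 of the sets was found in 21 members by column order and 20 members by name prefix. The choice of windows with at least 10 positive libraries by itself raises these medians and keeps such members few.

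The order of the columns carries no meaning in the labels, so odd and even columns serve as 2 sets of libraries in which the same rule can be applied. Scaled to 37 libraries, the limits become 5 to 7. In the odd columns 5000 windows (8.09%) fell within them and in the even columns 3138 (5.08%). The sets had 335 windows in common, which was 6.7% of the odd set and 10.7% of the even set. Shifts gave 171, a ratio of 1.95, but they do not hold the 2 sets at their observed sizes. This ratio therefore mixes the sizes of the sets with their sharing. Over all windows the even set held 5.08%, beside the 6.7%, and the odd set 8.09%, beside the 10.7%. All 335 are members, since the 2 limits add up to between 10 and 14, and they make up 32.1% of the members. At least 5 positive libraries in both sets were found in 369 members (35.4%), and shifts gave 34.1% for windows in 10 to 15 libraries, so calls of a member divided between odd and even columns much as shifted calls did.

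Detection of windows chosen in one set was then tested in the libraries of the other, which the choice did not use. For each held-out library, the share of chosen windows that were positive was compared with the share expected from its coverage of the same chromosomes. Windows chosen in odd columns were positive in 6.06% ± 3.49 of cases per even library (SD, n = 37) where 5.29% ± 3.02 was expected. The difference was 0.77 ± 0.162 percentage points (SE), with 30 of 37 libraries above expectation (two-sided sign-flip permutation test over libraries, adjusted p = 5.33e-05 over 4 tests). Windows chosen in even columns were positive in 6.81% ± 3.49 of cases per odd library (SD, n = 37) where 5.95% ± 2.93 was expected. Here the difference was 0.859 ± 0.159 percentage points, with 28 of 37 libraries above (permutation test, adjusted p = 5.33e-05). Observed detection was 1.15 and 1.14 times that expected, in windows that had been chosen for at least 5 positive libraries of 37 in the other set. Within windows free of unknown bases, the differences were 0.607 and 0.673 percentage points, and both ratios were 1.11. Most of the 5000 and of the 3138 chosen windows were not members, of which there are 1042. The tests thus concern windows chosen by the scaled limits, and not the members as such.

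The name prefixes gave the same direction. With limits of 5 to 6 libraries, 3184 windows chosen in f13 libraries were positive in 5.99% of cases in f14 libraries where 5.45% was expected, a difference of 0.542 ± 0.132 percentage points (SE, n = 40; 28 of 40 libraries above; permutation test, adjusted p = 5.33e-05). With limits of 6 to 8 libraries, 1826 windows chosen in f14 libraries were positive in 6.64% of cases in f13 libraries where 5.73% was expected, a difference of 0.913 ± 0.221 (SE, n = 34; 25 of 34 above; permutation test, adjusted p = 0.00036). The 2 chosen sets shared 113 windows, 3.55% of the f13 set and 6.19% of the f14 set. Over all windows the f14 set held 2.95% and the f13 set 5.15%. Shifts gave 51 shared windows, again without holding the 2 sets at their observed sizes. The labels do not say whether libraries came from separate cultures, so these p-values measure the spread between libraries only. Within windows free of unknown bases, the differences from f13 to f14 and from f14 to f13 were 0.368 and 0.738 percentage points. With expected detection matched on chromosome and GC quintile, the difference from f13 to f14 was 0.357 (permutation test, adjusted p = 0.00199). With chromosome, segment and GC quintile all matched over windows free of unknown bases, the 4 differences were 0.521, 0.592, 0.321 and 0.683 percentage points (permutation test, adjusted p = 1e-05 in each, the smallest the test can give). This setting was chosen after seeing the data, and it too lowered the f13 to f14 difference by over 1.5 times.

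Held-out detection rose with the number of libraries used to choose. Expected detection here was matched on chromosome, but not on segment or GC content. Over windows free of unknown bases, the difference in even libraries was -0.751 ± 0.12 percentage points (SE, n = 37) in windows that no odd library held, and detection was 0.52 ± 0.138 above expectation where 5 odd libraries did. It was 1.1 ± 0.317 above at 7 and 2.68 ± 0.638 above at 9 to 12 odd libraries (57 windows). The opposite direction gave -0.729 ± 0.117 at 0, then 0.542 ± 0.143, 1.45 ± 0.381 and 3.57 ± 1.41 above expectation at 5, 7 and 9 to 12, the last from 14 windows.

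**Figure D5:**
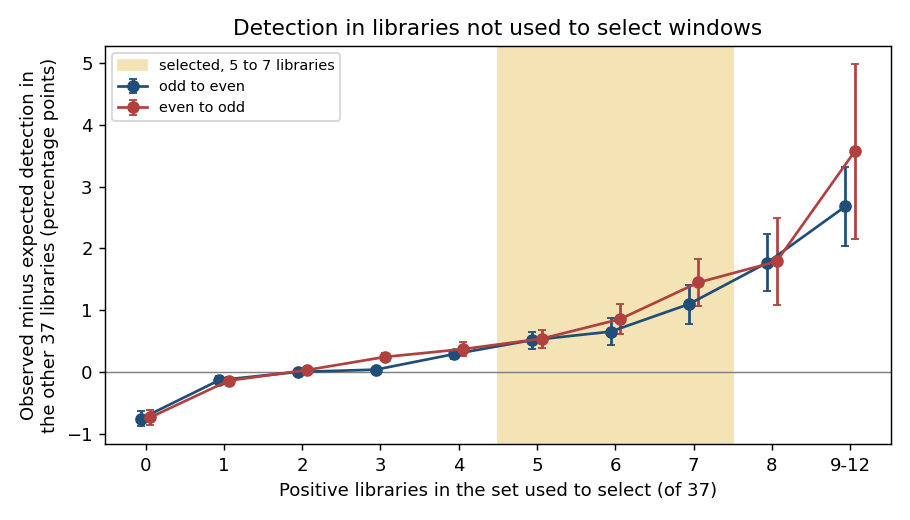
Observed minus expected detection (percentage points) in the 37 libraries not used to choose, against the number of positive libraries among the 37 that were, with the mean and SE over libraries as points and bars. Both directions cross 0 near 2 libraries and reach 2.68 and 3.57 at 9 to 12.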

How the data were processed

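The deposited table gives, per the file headers and labels, a call of 1 (positive) or 0 for each 40 kb window of mm9 in each library; these calls by the authors are neither counts nor scaled for depth, and no replicates were pooled. The submitters' processing notes name Bowtie2 2.1. The study's methods give a fixed threshold of reads per window in GAMtools for its multiplex libraries, and do not say whether it made these single-profile calls. A threshold lowers the coverage of shallow libraries, so depth and detection cannot be told apart.

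All 74 libraries form 1 group. Members are autosomal windows positive in 10 to 15 libraries. The members, gene lists and tests were chosen with earlier results of these data known. Averages over all circular shifts were computed exactly from each library's coverage of each chromosome (Poisson-binomial sums), with neighbouring calls treated jointly. Runs are consecutive members. Genes are those of the GENCODE annotation of NCBIM37, whose chromosome lengths equalled the last window ends, and a start site is the 5′ end of the gene. Held-out tests were two-sided sign-flip permutation tests over libraries (100000 resamples), adjusted by Benjamini-Hochberg over 4 tests with a threshold of 0.05. The calculations were tested on simulated data. Tools were Python 3.11.15, numpy 2.4.6, pandas 2.3.3 and scipy 1.17.1. Named were the 8 longest runs, with the 14 tied at 4 windows taken by their mean number of libraries (1 run is not reported here), the 3 windows at 15 libraries furthest above their neighbours (a tie made 4), the 3 longest runs without a protein-coding gene (a tie made 4), list genes starting in members, and the chromosomes with the most and fewest members. Other features named were chosen after their values were seen. No columns were left out. Alternatives changed the limits, libraries, windows, isolated calls, run definition and expected detection.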

Additional observations from a re-analysis of the deposited data

Results flagged for a closer look

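Chromosomes X and Y were outside the comparisons, and 7 of the 4167 windows of chromosome X and 1 of the 398 of chromosome Y were also positive in 10 to 15 libraries. They were chosen by these numbers, so the numbers are a description. Among the 7 windows on X, those with the most positive libraries were chrX:121280001-121320000 (15 libraries) and chrX:166400001-166440000 (14 libraries, with 18.9% repeated words), and the 1 window on Y was chrY:1760001-1800000 (14 libraries, 6.23% repeated words).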

How the results depend on the processing

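The number of members depended on its limits, with 2292 windows in 9 to 15 libraries and 425 in 11 to 15. It was 628 without the 3 libraries of highest coverage and 158 after removal of calls with no positive neighbour in the same library, each with the limits kept. That removal left 104 runs of 1.52 windows on average, and joining runs across gaps of 1 window gave a mean length of 1.63. Counting genes by start site gave 0.455 per member. The excess over shifts was 1.71 to 2.94 under its 5 alternatives. The 28 held-out alternatives kept their direction and their side of the threshold, at 0.321 to 1.22 percentage points and a highest adjusted p of 0.00757 (permutation test). Of these, 8 were added after seeing the data, as were 2 for the share of members in the proximal segments, which was 39.1% and 41.6%. With 74 libraries, a window at 10 and one at 9 differ by 1 call. Depth is unknown, and how many negative calls are missed detections was not tested. No paired analysis was possible because the labels give 1 group.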
